A study of Mus musculus with 16 samples.

Results

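Skin in which β-catenin had been active for 7 days was compared with untreated skin of the same transgenic line. The members were chosen by sample title, as the 3 arrays of transgenic skin at day 7 and the 2 arrays of transgenic skin at day 0, which are 5 of the 16 arrays of the series. All probe sets were used. The animals of line D2 carry K14deltaNB-cateninER, an N-terminally truncated β-catenin joined to the hormone-binding domain of the oestrogen receptor. The keratin 14 promoter, active in basal keratinocytes, drives it. Day 7 skin had been treated for 7 days with 4-hydroxytamoxifen, the ligand that releases the fusion protein, and day 0 skin for 0 days. The comparison group was wild-type C57BL/6 skin treated in the same way, with 3 arrays at day 0 and 2 at day 7. Another 3 transgenic and 3 wild-type arrays came from day 1 and are given as values only. No group in the labels received vehicle alone, so drug, handling and elapsed time cannot be told apart within a genotype. The labels give neither age nor sex. RNA of both wild-type day 7 arrays is described as from a mouse, that of the transgenic arrays as from mice. Separate animals behind the arrays of a group are not stated, and the p-values therefore rest on a spread between samples that may be technical.

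β-Catenin is the messenger of canonical Wnt signalling. When it escapes degradation it enters the nucleus and works with factors of the TCF/LEF family on target genes. In skin this signal is known for starting hair follicles in the embryo and for starting a new growth phase (anagen) in resting follicles. A growing follicle makes a hair shaft of hard keratins bound by keratin-associated proteins. Around the shaft lies the inner root sheath, a mould with keratins and trichohyalin of its own. Shaft and sheath descend from dividing matrix cells that surround the dermal papilla, and melanocytes in the bulb colour the shaft.

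Whole skin was measured on Affymetrix Mouse 430 A arrays, and every value below is a probe-set intensity scaled to 1 common trimmed mean. The trimmed means of the deposited values lay between 359 and 548, and the 3' to 5' ratio of Gapdh between 0.884 and 1.26. Within groups, Pearson correlations between arrays over all genes, which are no independent replicates, were 0.974 to 0.988. Changes are differences of log2(intensity + 32), given with the standard error (SE) of limma's fit over all 16 arrays. A gene passed the threshold at an adjusted p under 0.05. The added 32 makes changes of dim genes smaller than the ratio of their intensities. Markers of the labelled tissue were bright on every array, with Krt14 of basal keratinocytes at 6119 to 9051, Krt10 of suprabasal keratinocytes at 12015 to 16737 and Col1a1 of fibroblasts at 7375 to 12231. Esr1, the oestrogen receptor gene, read 408 and 401 at transgenic day 0 and 218, 256 and 189 at day 7, and was lower on every wild-type array. Its change of -0.80 ± 0.34 in transgenic skin did not pass (limma, adjusted p = 0.0808).

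The third day 7 array of the transgenic group stood apart in several gene groups. It was the lowest of the 3 for 14 of 14 keratin-associated protein genes, 11 of 12 hair shaft keratins and 11 of 12 genes of the inner root sheath. It was the highest for 22 of 22 macrophage genes and 19 of 21 interferon-response genes. Over all 9064 genes tested it was the lowest in 34.5% and the highest in 40.9%. It was also the highest for 17 of 20 vessel, 14 of 17 collagen, 15 of 19 proteoglycan and elastic fibre and 12 of 15 fat cell genes. Its part in the results was not tested. Without it the same numbers of inner root sheath (11), hair shaft (11), keratin-associated (14), vessel (13) and fat cell genes (13) were called, with medians of 4.64, 4.44, 3.83, -0.56 and -1.29.

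The transcriptome of transgenic skin changed broadly by day 7. Of 9064 genes tested, 1684 rose and 1819 fell. These calls made up 38.6% of the genes, with 18.6% higher and 20.1% lower. At least 2-fold changes numbered 337 upward and 398 downward, and at least 4-fold changes 90 upward and 32 downward. Changes of at least 4-fold were thus mostly rises. These rises include hair genes that entered the test only because they were bright at transgenic day 7. The split without such genes was not counted. For 59.6% of genes the day 0 and day 7 arrays of transgenic skin were completely separate, against 44% in wild-type skin. The largest rises and falls named below were chosen among such genes, so separate arrays are no further support for them. In wild-type skin 11.5% of genes passed, with 498 higher (5.49%) and 540 lower (5.96%). That total of 1038 became 318 when wild-type day 7 replicate 1 was left out, 440 for replicate 2 of the same group and 647 for the second wild-type array of day 0. The change differed between genotypes for 2154 genes (23.8%), of which 1096 were higher (12.1%) and 1058 lower (11.7%) in transgenic skin. The median change of all genes was 0.01 in transgenic and -0.03 in wild-type skin. Without the scaling that median was -0.13 in transgenic skin, and 521 genes rose and 1253 fell, so the share of rises among the calls was 29.4% in place of 48.1%.

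**Figure D1:**
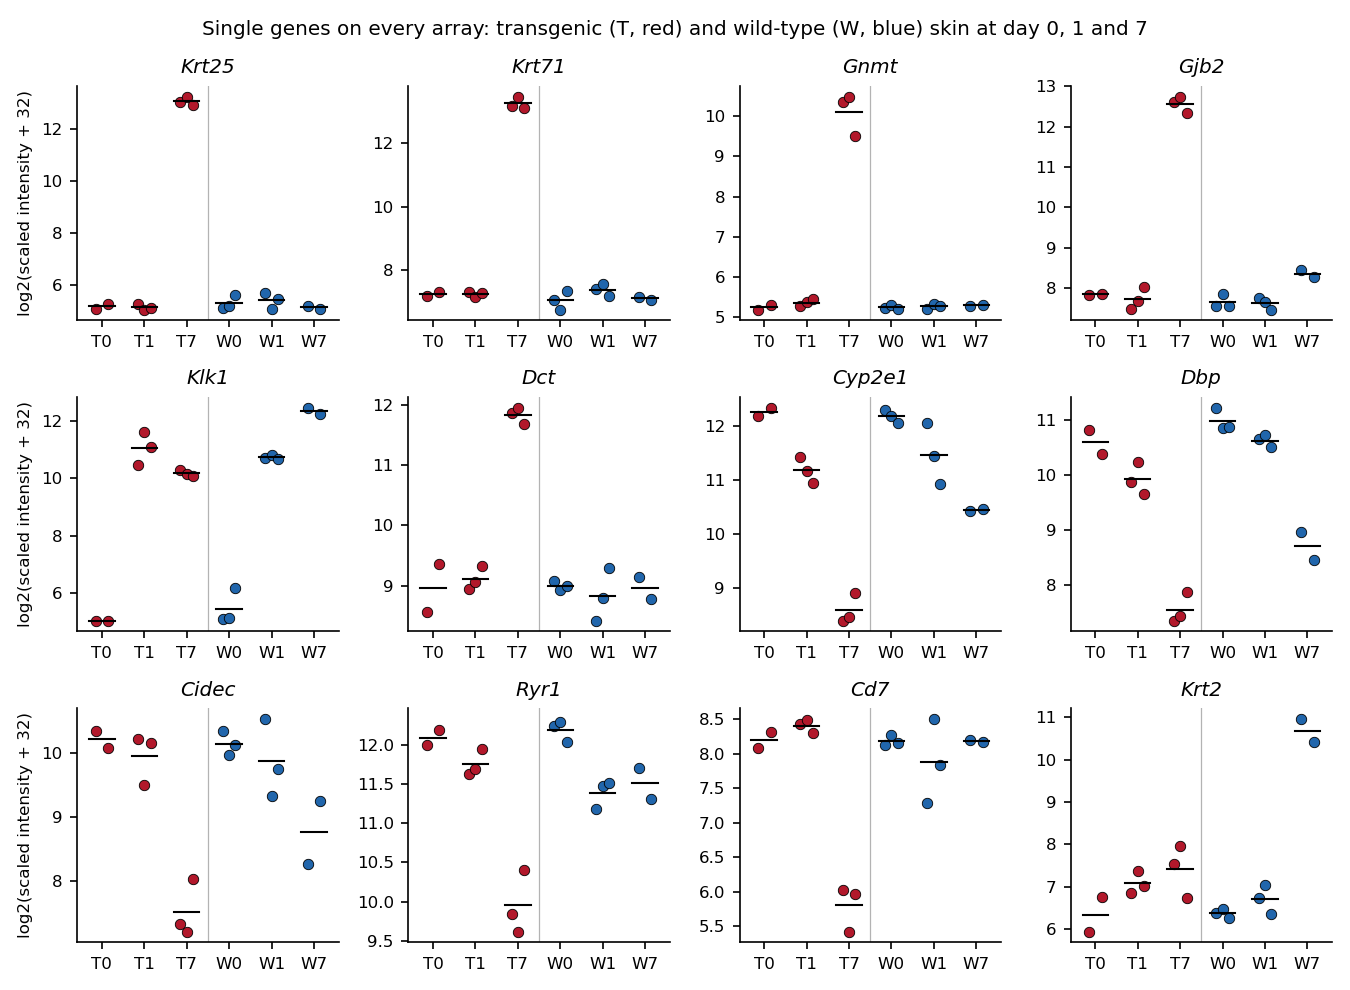
Log2(scaled intensity + 32) of 12 genes on each of the 16 arrays (dots), with the group mean (line). T and W are transgenic and wild-type skin and the digit is the day. Krt25, Krt71, Gnmt, Gjb2 and Dct were far higher in the 3 transgenic day 7 arrays than elsewhere, Klk1 was high in treated skin of both genotypes, Krt2 was highest in the 2 wild-type day 7 arrays, and Cyp2e1 fell in both genotypes.

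Structural genes of the hair follicle had the largest rises. Krt25, a type I keratin of the inner root sheath, read 1.98 and 7.22 on the day 0 arrays and 8449, 9768 and 7747 on the day 7 arrays. All 3 day 7 arrays were bright while both day 0 arrays were near 0. The log2 change was 7.89 ± 0.20 (limma, adjusted p = 2.61e-13). Krt25 was so dim at day 0 that it may have entered the test only through the day 7 arrays. In that case it had to be high there. Krt71, the type II partner keratin of the sheath, read 113 and 125 at day 0 and 9208, 11333 and 8891 at day 7. It rose by 6.02 ± 0.16 (limma, adjusted p = 2.61e-13), and its groups lay far apart. Krt27, a further sheath keratin, read 14.4 and 51.0 and then 5589, 7028 and 3927, a rise of 6.44 ± 0.33.

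The windows upstream of these keratins are shown because they lead the ranking by size of change. RefSeq's promoter table of build GRCm38.p6 gives 250 bases before to 50 after the start, and 3 of the 4 leading genes have an entry (Krt25, Krt27 and Krt71). The window of Krt25 is chr11:99322902-99323201, that of Krt27 chr11:99351069-99351368 and that of Krt71 chr15:101743048-101743347, all on the minus strand. Capitals mark TATAAA and CCAAT, the letters of a TATA box and of a CCAAT box.
Krt25: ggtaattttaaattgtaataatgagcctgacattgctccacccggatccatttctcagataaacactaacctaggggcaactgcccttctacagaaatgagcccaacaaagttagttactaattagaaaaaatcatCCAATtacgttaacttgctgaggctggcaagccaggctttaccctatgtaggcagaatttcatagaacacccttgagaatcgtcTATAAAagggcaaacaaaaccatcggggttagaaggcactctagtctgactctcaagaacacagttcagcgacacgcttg
Krt27: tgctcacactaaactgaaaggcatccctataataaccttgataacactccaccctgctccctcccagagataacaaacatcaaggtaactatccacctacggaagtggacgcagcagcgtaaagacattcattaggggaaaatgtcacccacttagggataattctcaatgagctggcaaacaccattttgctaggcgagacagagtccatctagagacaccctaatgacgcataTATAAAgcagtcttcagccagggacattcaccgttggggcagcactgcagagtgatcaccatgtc
Krt71: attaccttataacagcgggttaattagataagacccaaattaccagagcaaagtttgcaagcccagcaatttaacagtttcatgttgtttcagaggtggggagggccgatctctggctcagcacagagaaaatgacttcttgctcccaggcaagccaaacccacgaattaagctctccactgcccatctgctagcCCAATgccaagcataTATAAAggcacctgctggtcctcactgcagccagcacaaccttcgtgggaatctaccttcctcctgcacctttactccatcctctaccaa

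Both strands were searched for TATAAA, for the box CCAAT and for the TCF/LEF-type motifs CTTTGAT (first form) and CTTTGAA (second form), with the first listed window of each gene. The motifs do not contain one another. TATAAA lay 30 bases before the start in Krt25, 15 in Krt27 and 40 in Krt71. CCAAT lay 114 bases before the start in Krt25 and 55 in Krt71. Neither TCF/LEF-type motif has its letters in these 3 windows. Among the 7299 tested genes with a window, TATAAA was present in 8.0%, CCAAT in 37.9% and 1 of the TCF/LEF-type motifs or both in 6.12%. Among all 1390 genes with a window that rose, the shares were 8.63%, 41.5% and 7.05%, and among all 1420 that fell 9.3%, 36.2% and 5.56%. Among the 72 that rose at least 4-fold they were 38.9%, 52.8% and 16.7%, and among the 24 that fell at least 4-fold 25.0%, 37.5% and 4.17%. The last group is small, with TATAAA in 6 of 24 windows. Taken singly, the first TCF/LEF-type form was in 2.78% of the 72 windows of strong rises and the second in 13.9%. The shares among all tested genes with a window were 2.62% and 3.67%. The 72 include related genes of the keratin clusters. These are counts of letters in fixed windows.

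The inner root sheath list held 12 tested genes of 16 listed, of which 11 rose, with a median change of 4.31. Padi3, which modifies trichohyalin, rose from 68.3 and 84.7 to 2766, 3068 and 1699. S100a3, a calcium-binding protein of hair cells, rose from 100 and 88.7 to 5040, 5799 and 3161. Trichohyalin itself (Tchh) went from 74.6 and 94.4 to 4234, 5621 and 3835. For each of them the lowest day 7 array lay far above the highest day 0 array. Tgm3, a crosslinking enzyme of sheath and epidermis, was the member that did not pass, at -0.19. Of the 12 tested genes, 8 passed the filter on dim values only through the day 7 arrays and so had to be high there. With no filter 10 of 12 passed.

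Hair shaft keratins rose for 11 of 12 tested genes (15 listed, 9 through the filter by day 7 alone, and 11 of 12 with no filter), with a median of 3.82. Krt35, a keratin of the early matrix and cortex, was even between arrays, at 3099, 3633 and 2670 against 40.1 and 40.4, a rise of 5.44 ± 0.14. Krt33a and Krt34, keratins of the cortex, were uneven. Krt33a read 2812, 3672 and 983 at day 7 against 5.20 and 5.78 at day 0, and Krt34 1276, 1937 and 406 against 4.70 and 3.61. The spread within day 7 was thus several-fold, yet the groups remained far apart. Without the third day 7 array the rise of Krt33a was 6.45 in place of 5.88, and that of Krt34 5.48 in place of 4.85. Krt84 read 96.1 and 130 at day 0 and 69.1, 111 and 126 at day 7, a change of -0.13 that did not pass.

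Keratin-associated proteins, which bind the shaft keratins, rose for 14 of 14 tested genes of 36 listed, with a median of 3.11, and 12 of the 14 were in the test only because of day 7. With no filter 15 of 18 passed. Krtap4-16 varied most between the day 7 arrays among the genes named, with 8.75 and 4.64 at day 0 and 2354, 3868 and 343 at day 7. Its rise was 5.29 ± 0.65 (limma, adjusted p = 1.17e-05) and 6.31 without the third day 7 array. Krtap8-1 read 79.1 and 69.1 and then 5484, 7398 and 1773, a rise of 5.31 ± 0.37. The order of the 3 day 7 arrays was the same in both genes. Without day 7 replicate 1, or without replicate 2, 9 of the genes remained above the filter, and all 9 passed. Probe sets of keratins and keratin-associated proteins can read one another's transcripts, so single members of these families are uncertain. In each of the other lists described, between 0 and 5 members passed the filter only through the day 7 arrays.

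Regulators of the hair matrix rose with these products, in 13 of 19 tested genes against 2 that fell (median 0.91). Msx2, a homeobox factor of the matrix, read 73.4 and 103 at day 0 and 808, 866 and 621 at day 7, a rise of 2.73 ± 0.16. Mycn, a growth-promoting factor, went from 74.3 and 105 to 796, 735 and 759, and Dlx3 from 216 and 262 to 1218, 1199 and 1122. Hoxc13, which controls hair keratin genes, rose by 1.90 and Foxn1, the gene of the nude phenotype, by 0.91. The members that fell were Dlx5, at -1.17, and Gata3, a factor of the inner root sheath, at -0.36. Gata3 lost its call without the scaling, without the third day 7 array and without transgenic day 0 replicate 2.

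**Figure D2:**
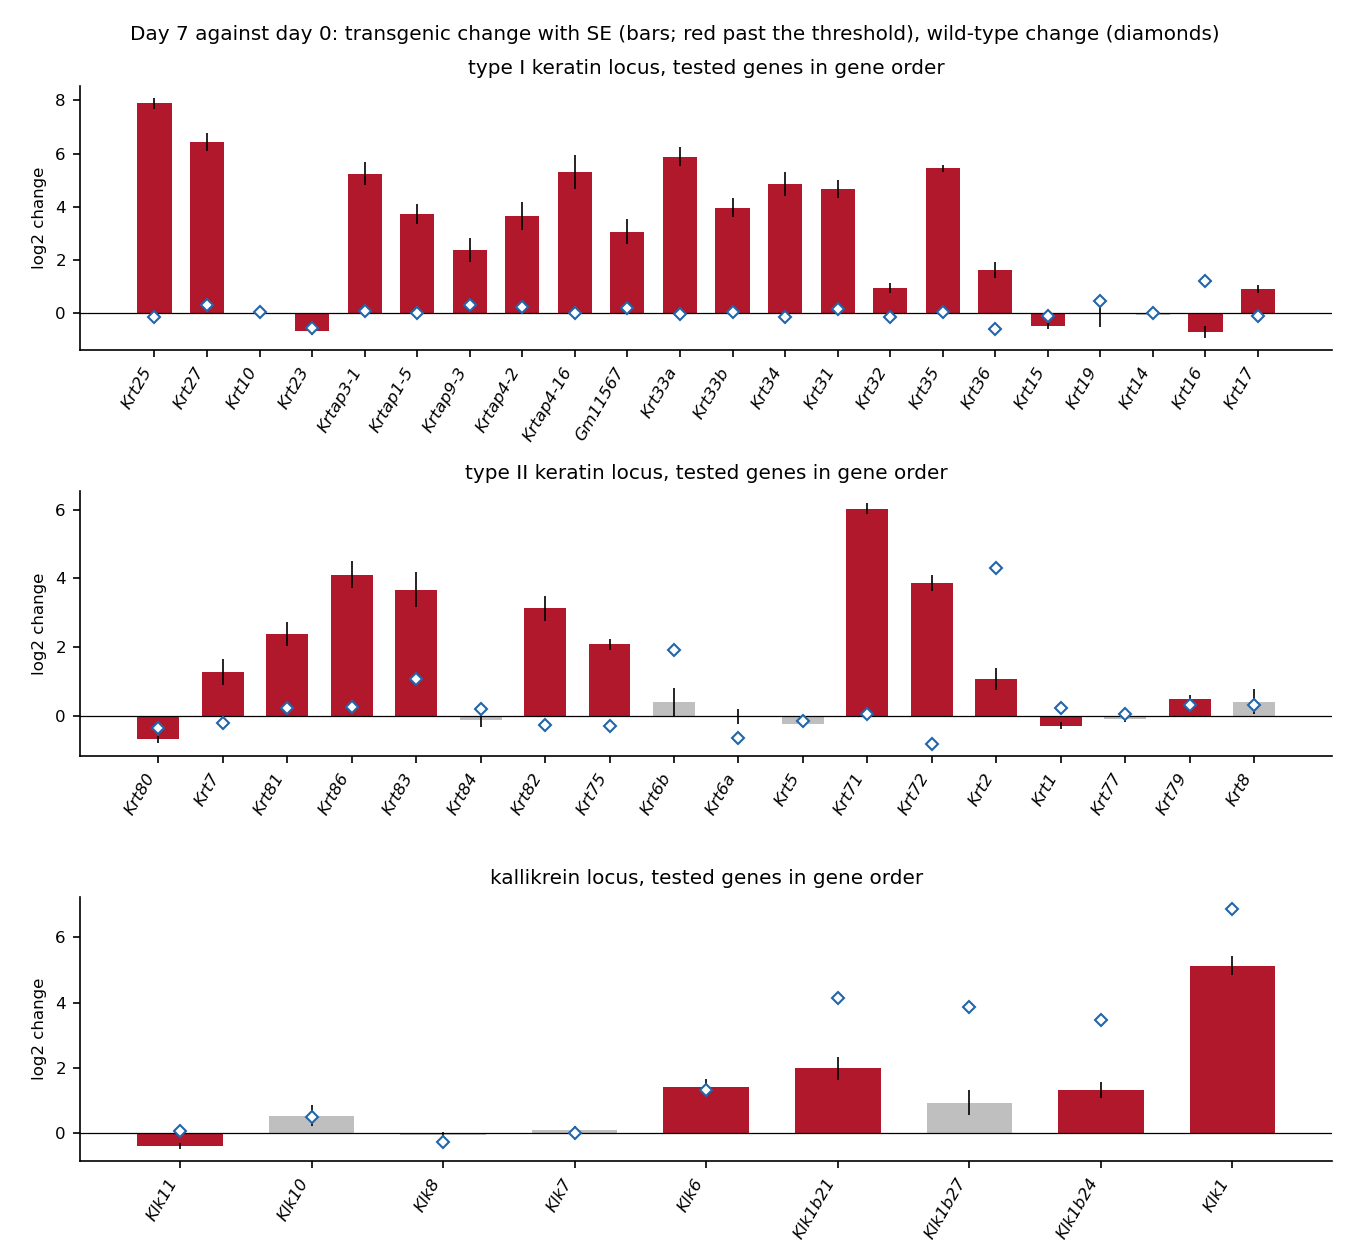
Log2 change from day 0 to day 7 of the tested genes in 3 gene clusters, in RefSeq gene order and not to distance. Bars with SE are transgenic skin (red past the threshold, grey not) and diamonds are wild-type skin. Hair and sheath keratins had red bars of up to 7.89 beside epidermal keratins near 0, and Klk1 and its neighbours had diamonds above the bars.

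The 2 keratin gene clusters showed hair and epidermal keratins side by side with different changes. These clusters were chosen by position after values had been seen. Of 64 genes in the type I cluster 22 were tested, and 16 rose and 3 fell. Krt25 and Krt27 lie near Krt10, which read 13919 and 14872 at day 0 and 13016, 14040 and 15243 at day 7, a change of -0.03. Further along, Krt14 changed by -0.08 and Krt15, a keratin of basal and bulge cells, fell by 0.50, a call lost without transgenic day 0 replicate 2. Krt17 rose by 0.89, while Krt16 fell by 0.74, although Krt16 and Krt17 are neighbours and both are known as wound keratins. The call of Krt16 was lost without transgenic day 0 replicate 1 (-0.44) and without day 7 replicate 1 (-0.61). In the type II cluster 18 of 27 genes were tested, and 10 rose and 2 fell. Krt5, next in order to Krt71 among the tested genes, changed by -0.23, which did not pass.

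Genes known as Wnt and β-catenin targets rose in 9 of 15 tested cases, with a median of 0.64. Bambi, a decoy receptor for BMP and TGF-β signals, read 85.1 and 112 at day 0 and 641, 708 and 597 at day 7, a rise of 2.39 ± 0.19. Sox4 rose from 997 and 1053 to 3893, 3716 and 3489. Lgr5, a receptor on follicle stem cells, rose from 253 and 358 to 853, 856 and 764. In all 3 genes every day 7 array lay above every day 0 array. Axin2, the most widely used target, read 750 and 725 and then 845, 785 and 836. Its change of 0.15 ± 0.10 did not pass (limma, adjusted p = 0.275). Ctnnb1, which encodes β-catenin, rose by 0.39 ± 0.08, from 5803 and 5433 to 6943, 7578 and 7580. Its other 2 probe sets rose by 0.92 and 0.72, and without the scaling its change was 0.24 and did not pass.

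Secreted members of the Wnt pathway went both ways. Among the ligands, Wnt11 rose by 1.25, Wnt6 by 0.95 and Wnt5a by 0.89, Wnt10a fell by 0.35, and the other 3 of 7 tested did not pass. Without the scaling Wnt5a and Wnt10a lost their calls. Without transgenic day 0 replicate 2 both lost them too, at 0.65 and -0.30, as did Wnt10a without day 0 replicate 1 (-0.41) or day 7 replicate 2 (-0.31). Among receptors and antagonists 6 of 17 rose and 3 fell, against 18.6% and 20.1% of all genes. Wif1, a secreted inhibitor, rose from 59.1 and 54.2 to 299, 301 and 332. Sfrp2, another inhibitor, fell from 895 and 642 to 91.5, 94.0 and 89.9, a change of -2.67 ± 0.26, and Sfrp4 fell by 1.27. Sfrp2 also fell in wild-type skin, by 2.44, from 735, 513 and 1097 to 121 and 102. The difference between genotypes for Sfrp2 was -0.23, with a 95% interval from -1.03 to 0.56.

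In the Hedgehog pathway 4 of 8 tested genes rose, against 18.6% of all genes. The transcription factor and target Gli1 read 83.7 and 133 at day 0 and 910, 997 and 890 at day 7 (2.80 ± 0.17). The receptor Ptch1 read 487 and 531 and then 3210, 3427 and 2808 (2.55 ± 0.15), and Gli2 and the transducer Smo rose by 1.44 and 0.87. In the BMP pathway 8 of 18 rose and 1 fell, and only 3 rose without the scaling. Smad6, an inhibitory Smad, rose by 1.43, and the ligand gene Bmp8a rose from 3.63 and 8.77 to 126, 168 and 88.3. In the Notch pathway 5 of 14 rose and 3 fell, against 18.6% and 20.1% of all genes. The Notch median was -0.01, or 0.03 with quantile normalization. Without the scaling 2 rose, and without single arrays between 0 and 2 fell.

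Genes of cell division mostly rose, with 29 of 32 mitosis genes higher and 1 lower. Their median was 1.77, against 0.01 over all genes. Mki67, the Ki-67 proliferation marker, read 442 and 424 at day 0, 765, 881 and 747 at day 1 and 2290, 2133 and 2063 at day 7. It rose by 2.24 ± 0.14 to day 7 (limma, adjusted p = 2.15e-08), and the 3 groups of arrays did not overlap. Cyclin B2 (Ccnb2) rose by 2.31, topoisomerase Top2a by 2.21 and survivin (Birc5) by 2.12. The member that fell was Pttg1, the securin gene, at -0.49, or -0.27 and not called without transgenic day 0 replicate 2. All 25 tested genes of DNA replication also rose, with a smaller median of 0.91. The helicase subunit Mcm5 read 246 and 284 at day 0 and 743, 775 and 881 at day 7. Without the scaling 15 of the 25 replication genes passed. In wild-type skin mitosis genes had a median of 0.43 and 5 rose, whereas replication genes had a median of -0.32 and 10 fell. Those wild-type calls depended on single arrays: without wild-type day 7 replicate 1, 1 mitosis gene rose and 1 replication gene fell, and without the scaling 0 and 0 in limma. The difference between genotypes passed for 27 mitosis and 22 replication genes, all higher in transgenic skin.

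Pigment cell genes rose in 8 of 12 tested cases, with a median of 1.54. Pmel, the fibril protein of melanosomes, read 191 and 316 at day 0 and 2597, 2591 and 2135 at day 7, a rise of 3.14 ± 0.20. Dct, Tyr and Tyrp1, the enzymes of melanin synthesis, rose by 2.87, 2.61 and 2.49. Tyr read 47.5 and 92.9 and then 670, 603 and 478. All day 7 arrays lay above all day 0 arrays in these genes. Sox10, Mitf and Ednrb, which melanocytes use from early in their lineage, changed by -0.09, 0.04 and 0.00 and did not pass. Rab38, which helps to carry the enzymes to melanosomes, fell by 0.57, a call lost without transgenic day 0 replicate 2 (-0.44). Of the 12 genes 3 passed the filter only through day 7, and with no filter 10 of 15 rose. The summed intensity of the list was 3409 to 4251 at day 0 and 9895 to 11460 at day 7. In whole skin more cells of a type and more RNA per cell cannot be told apart.

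Gnmt and Gjb2 had large rises outside the follicle's structural genes. Gnmt, which is not in the list of polyamine and methyl-donor genes and which transfers a methyl group from S-adenosylmethionine to glycine, read 4.46 and 7.84 at day 0, 6.74, 9.62 and 11.7 at day 1 and 1267, 1396 and 691 at day 7. It rose by 4.85 ± 0.25 (limma, adjusted p = 1.86e-09). Gnmt was so dim before day 7 that it may have entered the test only through the day 7 arrays. In that case it had to be high there. Ahcy, which breaks down the product S-adenosylhomocysteine, rose from 558 and 544 to 1528, 1402 and 1505. Ornithine decarboxylase (Odc1), the first enzyme of polyamine synthesis, rose by 0.75 and spermine oxidase (Smox) by 0.97. In the list 8 of 12 genes rose, with a median of 0.42, but 2 of 12 without the scaling, where Odc1 lost its call, and 4 of 12 without transgenic day 0 replicate 1. Gjb2, which encodes the gap junction protein connexin 26, rose from 198 and 199 to 6263, 6812 and 5131, a change of 4.72 ± 0.16.

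**Figure D3:**
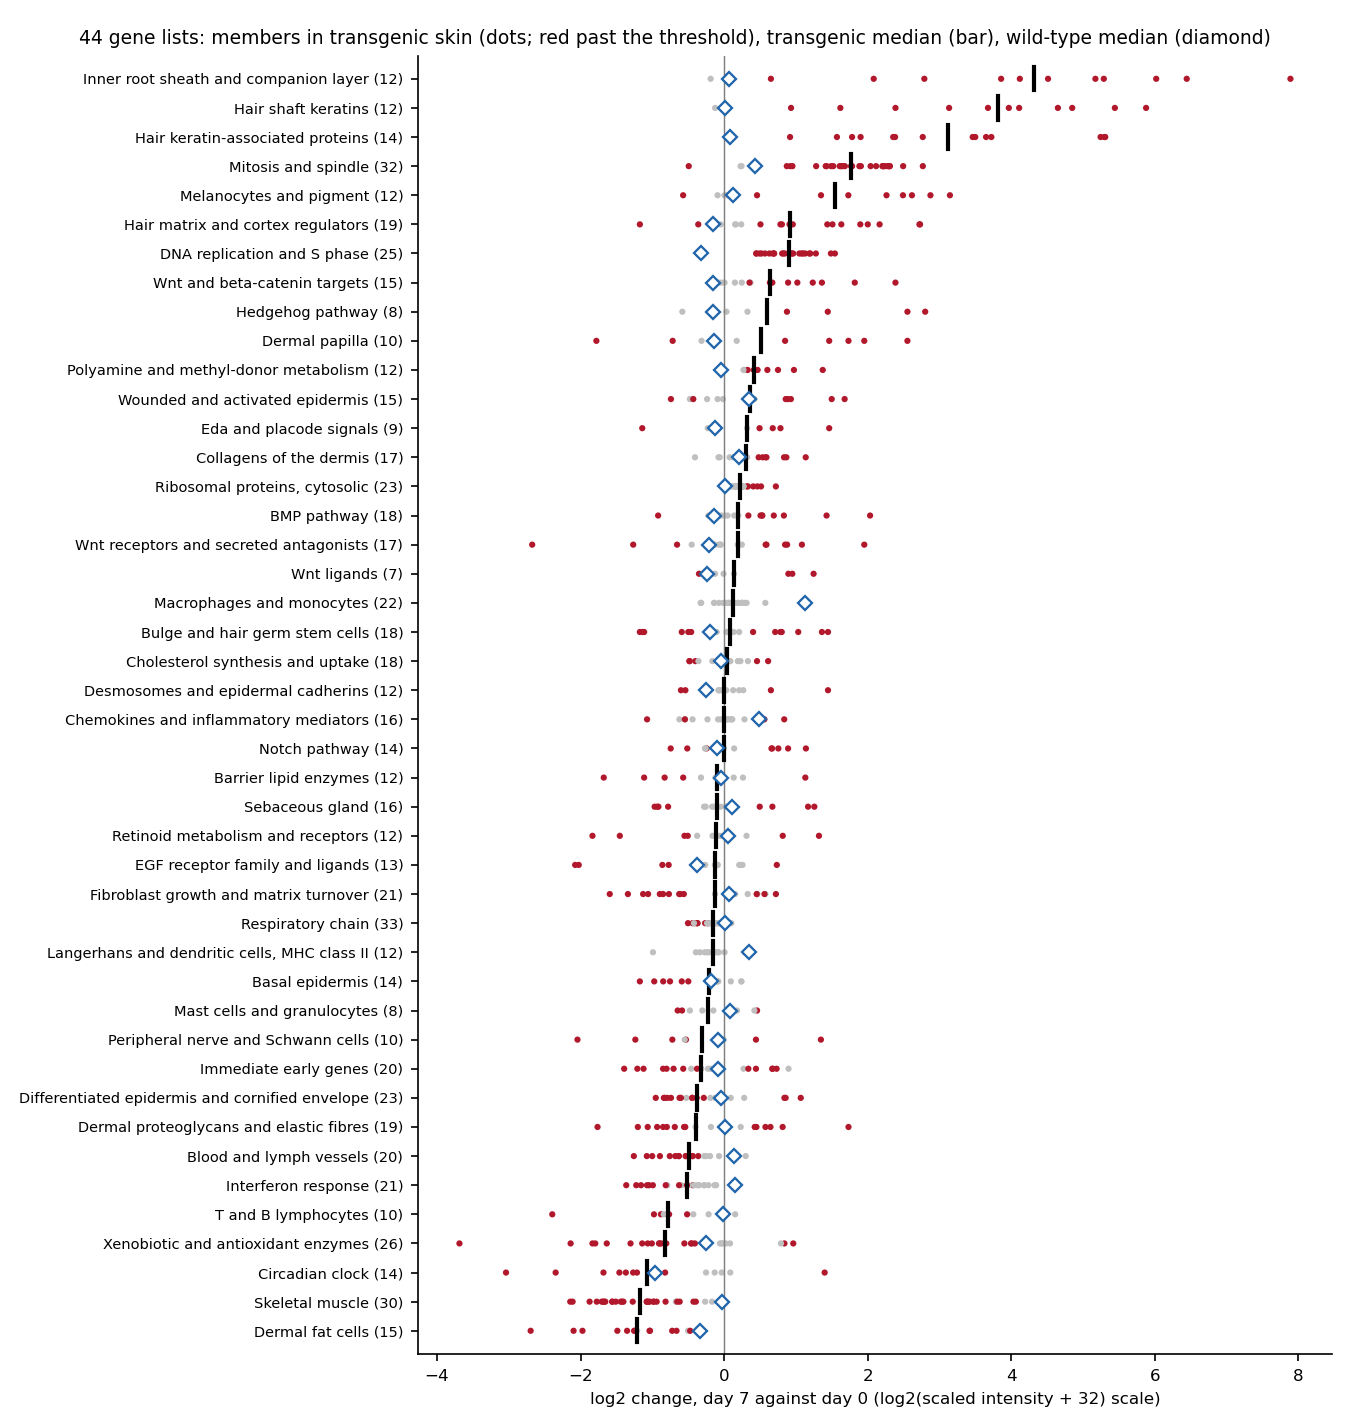
Log2 change from day 0 to day 7 for the members of 44 gene lists (number of tested genes in brackets). Dots are genes in transgenic skin, red past the threshold and grey not, the bar is their median and the diamond is the wild-type median. The lists run from dermal fat cells, at a median of -1.21, to the inner root sheath, at 4.31.

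Fat and muscle transcripts fell together. Of 15 tested genes of dermal fat cells 13 fell, with a median of -1.21, and the other 2 were also negative. Cidec, a lipid droplet protein, read 1261 and 1049 at day 0 and 127, 115 and 227 at day 7, a log2 change of -2.70 ± 0.34. Adiponectin (Adipoq) fell from 6349 and 5582 to 2053, 1798 and 2510, and the fatty acid carrier Fabp4 from 8984 and 7314 to 3460, 3132 and 3555. No day 7 array reached the day 0 range for these 3 genes. In wild-type skin 1 of the 15 fell, with a median of -0.33, and the difference between genotypes passed for 6 of 15, or for 3 without wild-type day 7 replicate 2. The summed intensity of the list was 46691 to 52033 at day 0 and 24868 to 28567 at day 7.

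Skeletal muscle genes, which in mouse skin come from the thin muscle sheet under the fat, fell in 27 of 30 tested cases (median -1.18). The calcium channel gene Ryr1 read 4070 and 4640 at day 0 and 882, 750 and 1327 at day 7, a log2 change of -2.14 ± 0.19. Muscle glycogen phosphorylase (Pygm) fell from 3425 and 4769 to 972, 689 and 1124, and Cmya5, a muscle protein, from 3055 and 4238 to 758, 613 and 878. The 3 members that did not pass were skeletal actin (Acta1), which lay between 10077 and 15779 over all 16 arrays and changed by -0.17, the myosin gene Myh1, at -0.27, and myoglobin (Mb), at -0.67. The summed intensity was 159189 to 201908 at day 0 and 91452 to 103255 at day 7. In wild-type skin the median was -0.03 and 2 genes fell, and the difference between genotypes passed for 25 genes, all lower in transgenic skin.

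Genes of vessels and nerve sheath were lower too. Among vessel genes 13 of 20 fell, with a median of -0.49. Pecam1 (CD31) read 326 and 350 at day 0 and 157, 146 and 202 at day 7, and the angiopoietin receptor Tek and von Willebrand factor (Vwf) fell by 1.00 and 1.08. The pericyte marker Rgs5 fell from 1779 and 1835 to 762, 684 and 767. Its other probe sets were at -1.92, which passed, and at -0.45 and -0.42, which did not. Arrays of the 2 days did not overlap for Pecam1 or Rgs5. Myelin basic protein (Mbp), of Schwann cells, fell from 2456 and 1826 to 460, 374 and 677, and Cnp from 1030 and 792 to 340, 265 and 531. The nerve list as a whole was mixed, with 4 of 10 lower and 2 higher, against 20.1% and 18.6% of all genes.

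**Figure D4:**
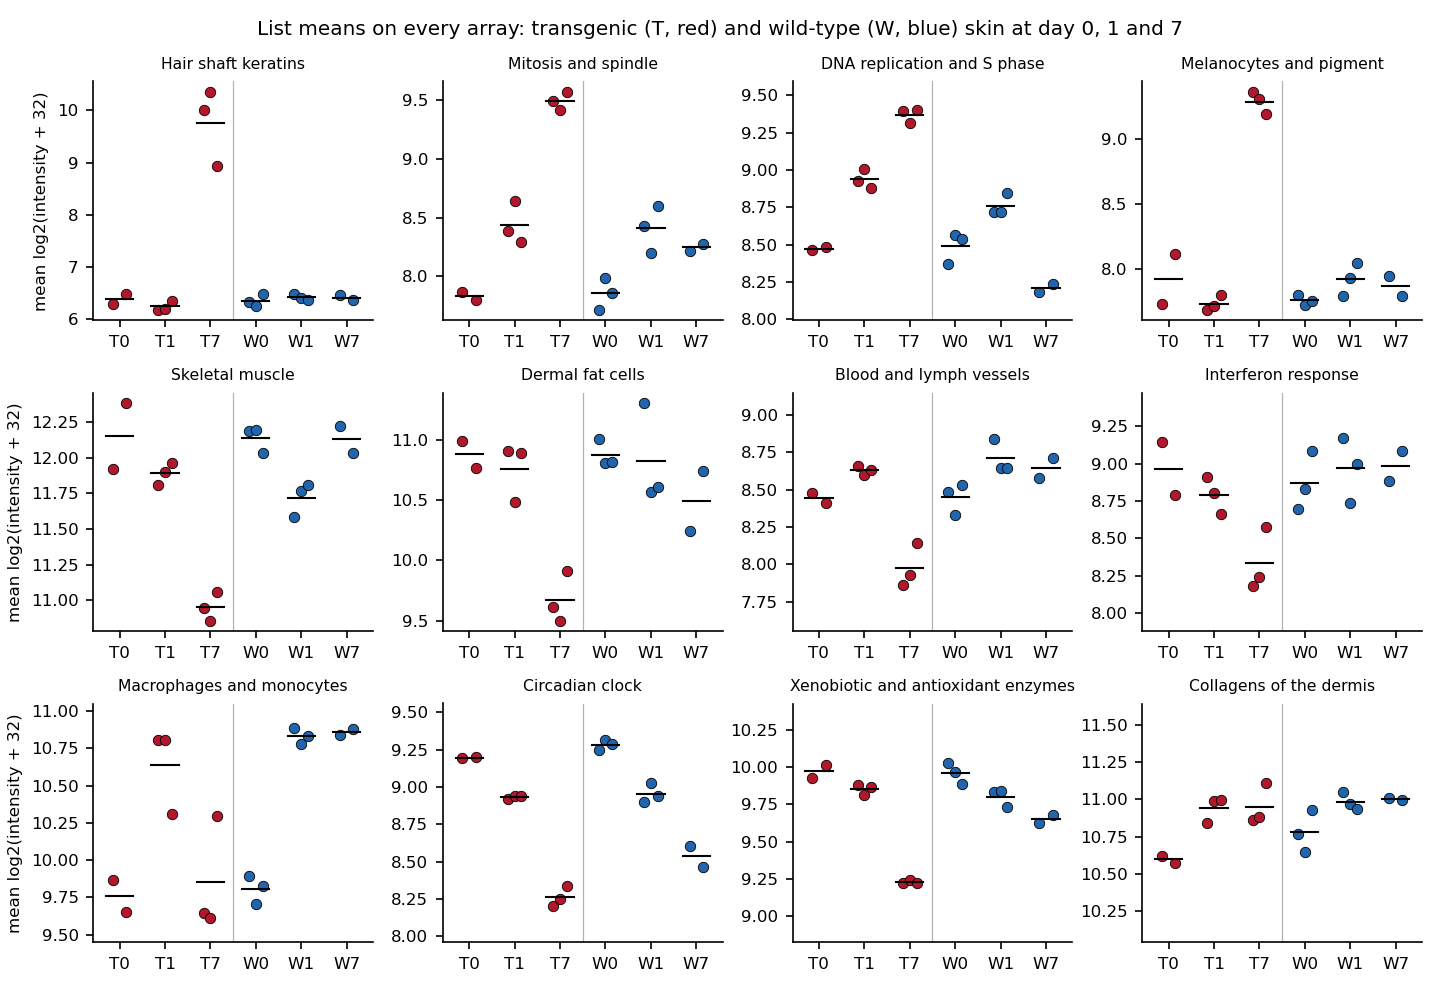
Mean of log2(scaled intensity + 32) over the tested members of 12 lists on each array (dots), with the group mean (line). T and W are transgenic and wild-type skin and the digit is the day. Muscle, fat, vessel and interferon lists had their lowest arrays in transgenic day 7 skin, the macrophage list was raised at day 1 in both genotypes and at day 7 in wild-type skin, and the clock list was lowest at day 7 in both genotypes.

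Macrophage genes separated the genotypes. In wild-type skin 21 of 22 tested genes rose, with a median of 1.13, and the summed intensity was 33239 to 38519 at day 0 and 70121 to 70247 at day 7. Without either wild-type day 7 array 11 of 22 rose. In transgenic skin 0 of 22 passed in limma, also 0 at an unadjusted p under 0.05, and the median was 0.12. That median turned to -0.03 without the scaling and to -0.12 without the third day 7 array, when 2 genes fell. The 3 transgenic day 7 arrays were uneven, with Lyz2, the macrophage lysozyme gene, at 4989, 4790 and 8710 against 5074 and 4827 at day 0. Only the third of them lay above day 0. The difference between genotypes passed for 15 of 22 genes, all lower in transgenic skin, and for 6 when replicate 1 of transgenic day 0, of transgenic day 7 or of wild-type day 7 was left out.

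Part of the interferon-response and lymphocyte genes fell in transgenic skin. Of 21 interferon-response genes 10 fell, with a median of -0.52, and 6 fell without transgenic day 0 replicate 1. Without the third day 7 array 12 fell, with a median of -0.63. Ifih1, a sensor of double-stranded RNA, read 1084 and 779 at day 0 and 375, 390 and 419 at day 7, and the guanylate-binding protein gene Gbp2 fell by 1.36. The wild-type median was 0.16. The difference between genotypes passed for 7 of the 21, all lower in transgenic skin. It passed for 3 without transgenic day 7 replicate 1 or 2, and for 11 without replicate 3. Among lymphocyte genes 6 of 10 tested fell, of 22 listed, with a median of -0.78. The difference between genotypes passed for 3 of the 10, all lower in transgenic skin. With no filter 4 of 17 fell, with a median of -0.21, a share near that of falls over all genes. Cd7, a surface protein of T cells, read 240 and 287 and then 33.2, 10.9 and 30.9, a log2 change of -2.39 ± 0.25. The T cell receptor subunit Cd3e fell from 183 and 189 to 76.5, 91.7 and 91.5. Of 8 genes of mast cells and granulocytes 2 fell and 1 rose, a share of calls close to the 38.6% over all genes. The proteases Cma1 and Cpa3 fell by 0.65 and 0.59, and the receptor Kit, which melanocytes also carry, rose by 0.46, a call lost without the scaling. Cma1 lost its call without transgenic day 0 replicate 2 and Cpa3 without replicate 1.

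Matrix genes of the dermis went both ways. Of 17 collagens 8 rose, with a median of 0.31, and 2 of 17 without the scaling. Without the third day 7 array 7 rose and 1 fell, with a median of 0.20. Col4a1, of basement membranes, rose from 2048 and 1805 to 3263, 3340 and 3773. Col1a1 changed by 0.31 ± 0.11 (limma, adjusted p = 0.0306), while its other probe set fell by 0.54 (limma, adjusted p = 0.0409), so its direction is not settled. The first call was lost without the scaling (0.16), with no filter, with no variance trend, with only the groups compared, with the replicate block (0.26), and without transgenic day 0 replicate 1 or day 7 replicate 3 (both 0.23). Of 19 genes of proteoglycans and elastic fibres 9 fell and 6 rose, the latter 2 without the scaling or without transgenic day 0 replicate 1. Without the third day 7 array 11 fell and 5 rose. Ogn (osteoglycin) fell from 2653 and 2229 to 606, 662 and 830, and dermatopontin (Dpt) by 1.20, while biglycan (Bgn) rose by 0.81. Versican (Vcan), a large proteoglycan of the dermal papilla, rose from 281 and 235 to 983, 859 and 947. It also rose in wild-type skin, by 1.08, and the difference between genotypes, 0.65, passed. Of 21 genes of fibroblast growth and matrix turnover 10 fell and 4 rose, with a median of -0.13, and all 4 rises lost their calls without the scaling. The matrix proteases Mmp3 and Mmp2 and the inhibitor Timp2 fell by 1.34, 0.90 and 0.85, and the growth factor carrier Igfbp5 by 1.59, although its other probe set was at 0.03. Other probe sets of Timp2 ran from -1.28 to -0.11, and those at -0.11 and -0.34 did not pass. The members that rose were Igfbp2 by 0.72, Mmp14 by 0.56, Pdgfra by 0.46 and Igfbp4 by 0.45. Pdgfra and Igfbp4 also lost their calls without transgenic day 0 replicate 2 and Mmp14 without replicate 1. The lists share some members, so a gene can count in several of them. In the dermal papilla list 5 of 10 tested genes rose, with a median of 0.51, and 2 fell, among them Igfbp3 by 1.78. With no filter 10 of 18 rose and 2 fell. Over all genes tested 18.6% rose and 20.1% fell.

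Genes of the basal and cornified layers, some of which the follicle also makes, mostly fell or did not pass. Of 14 basal genes 6 fell, with a median of -0.21. In wild-type skin 4 fell (1 without the scaling), with a median of -0.19. The difference between genotypes passed for 2 of the 14. The transgenic falls include the anchoring proteins Col17a1 and Dst and the integrin Itgb4. Col17a1 read 5371 and 6165 at day 0 and 2607, 2557 and 2430 at day 7, and Dst and Itgb4 fell by 0.97 and 0.85. Dst also fell in wild-type skin, by 0.87, and Col17a1 by 0.40, the latter not called without the scaling. The difference passed for Col17a1 but not for Dst or Itgb4. Among genes of the cornified layer 11 of 23 fell and 3 rose. Loricrin (Lor) went from 12592 and 14964 to 9894, 10323 and 10033, and the envelope protein Ppl from 3466 and 3797 to 2143, 2103 and 1861. The other probe set of Lor changed by -0.20, which did not pass. Ppl also fell in wild-type skin, by 0.58, a call lost without the scaling. The difference between genotypes did not pass for Ppl, while that of Lor did. The members that rose in transgenic skin were filaggrin (Flg) by 0.84, Casp14 by 0.86 and Krt2 by 1.07. Without the scaling Krt2 was the 1 that rose. Krt2 lost its call with only the groups compared, without transgenic day 0 replicate 1 (0.66) and without day 7 replicate 2 (0.79). The barrier lipoxygenase Alox12b fell from 693 and 596 to 234, 153 and 159. Among sebaceous gland genes 4 of 16 rose and 4 fell, but 2 rose without the scaling, and 2 fell without the third day 7 array or without transgenic day 0 replicate 1. Over all genes 18.6% rose and 20.1% fell. Fads2 rose from 123 and 107 to 337, 296 and 325, and Dgat2, an enzyme of triglyceride synthesis, fell by 0.97.

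Enzymes that handle foreign compounds held the largest fall of all genes. Cyp2e1 read 4677 and 5180 at day 0, 2722, 2280 and 1937 at day 1 and 304, 320 and 448 at day 7, a log2 change of -3.69 ± 0.24 (limma, adjusted p = 1.87e-08). The 3 times did not overlap. In the list 18 of 26 genes fell and 2 rose, with a median of -0.82. The aldehyde dehydrogenases Aldh1a1 and Aldh3a1 fell by 1.84 and 1.80, and the cytochrome Cyp2g1 fell by 2.14. The members that rose, Gclm by 0.96 and Gclc by 0.84, encode the subunits of the enzyme that starts glutathione synthesis. Cyp2e1 fell by 1.75 in wild-type skin as well, where 8 of 26 genes fell, 5 of 26 without the scaling and 4 of 26 without wild-type day 7 replicate 1.

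Of 13 genes of the EGF receptor family 4 fell, all ligands, and 1 rose, a share of calls close to the 38.6% over all genes. Betacellulin (Btc) read 2052 and 2144 at day 0 and 497, 490 and 485 at day 7, a log2 change of -2.03 ± 0.13, and epiregulin (Ereg) went from 954 and 879 to 205, 240 and 144. Egf itself fell by 0.86. Lrig1, a feedback inhibitor of the receptor and a stem cell marker, was the member that rose, by 0.73, a call lost without the scaling. Its other probe sets were at 0.49, which passed, and -0.06, which did not. The ligands Btc and Ereg also fell in wild-type skin, by 0.94 and 0.95, the latter not called without wild-type day 7 replicate 1.

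Genes of the circadian clock fell in both genotypes. In transgenic skin 9 of 14 fell and 1 rose (median -1.07), and in wild-type skin 8 fell and 2 rose (median -0.97). Dbp, a clock output factor, read 1776 and 1294 at transgenic day 0 and 132, 142 and 202 at day 7, a log2 change of -3.04 ± 0.20. In wild-type skin Dbp went from 2359, 1812 and 1842 to 469 and 318. Per2, part of the clock's negative arm, fell from 556 and 409 to 63.9, 63.7 and 77.0 in transgenic and from 410, 550 and 593 to 54.0 and 62.1 in wild-type skin. The factors Tef and Hlf, relatives of Dbp, fell by 1.46 and 1.68, and their opponent Nfil3 rose by 1.40. The other probe set of Tef was at 0.69 and did not pass. The difference between genotypes did not pass for Per2 (0.25, 95% interval -0.23 to 0.72) or Dbp (-0.77, 95% interval -1.38 to -0.16, adjusted p = 0.0641 in limma).

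Of 9 tested kallikreins 4 rose and 1, Klk11, fell in transgenic skin, at -0.39, a call lost without the scaling. Over all genes 18.6% rose and 20.1% fell. Klk1, tissue kallikrein, read 0.99 and 1.03 at transgenic day 0, 1373, 3102 and 2153 at day 1 and 1213, 1101 and 1056 at day 7, a rise of 5.13 ± 0.29. In wild-type skin it read 2.02, 3.04 and 40.9 at day 0 and 5550 and 4754 at day 7, a rise of 6.87. Its transgenic rise was thus present at day 1. Klk1b24, a close relative, read 43.7 and 43.2 and then 139, 144 and 193 in transgenic skin, and 51.8, 38.5 and 50.1 and then 812 and 865 in wild-type skin. Members of this family are alike enough for probe sets to read one another. Klk6 rose by 1.41 in transgenic and 1.31 in wild-type skin, the latter not called without wild-type day 7 replicate 1. In transgenic skin Klk1b27, Klk7, Klk8 and Klk10 changed by 0.94, 0.09, -0.07 and 0.53 and did not pass.

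Some of the changes were also called in wild-type skin. The 2 comparisons have no array in common. Among the rises, 120 genes were called in both genotypes, which is 7.13% of the transgenic and 24.1% of the wild-type list. Among the falls, 298 were called in both, which is 16.4% and 55.2%. Over all genes tested, 5.49% rose and 5.96% fell in wild-type skin, and 18.6% rose and 20.1% fell in transgenic skin. Opposite calls were made for 68 genes that rose in transgenic and fell in wild-type skin and for 32 that did the reverse. Hamp2, a gene of the hepcidin family, is an example of a shared fall. It went from 3035 and 3067 to 345, 315 and 194 in transgenic skin and from 1912, 2247 and 1679 to 111 and 428 in wild-type skin, and its difference of -0.38 had a wide 95% interval, from -2.16 to 1.40. The wild-type fall of Hamp2 was not called without wild-type day 7 replicate 1.

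**Figure D5:**
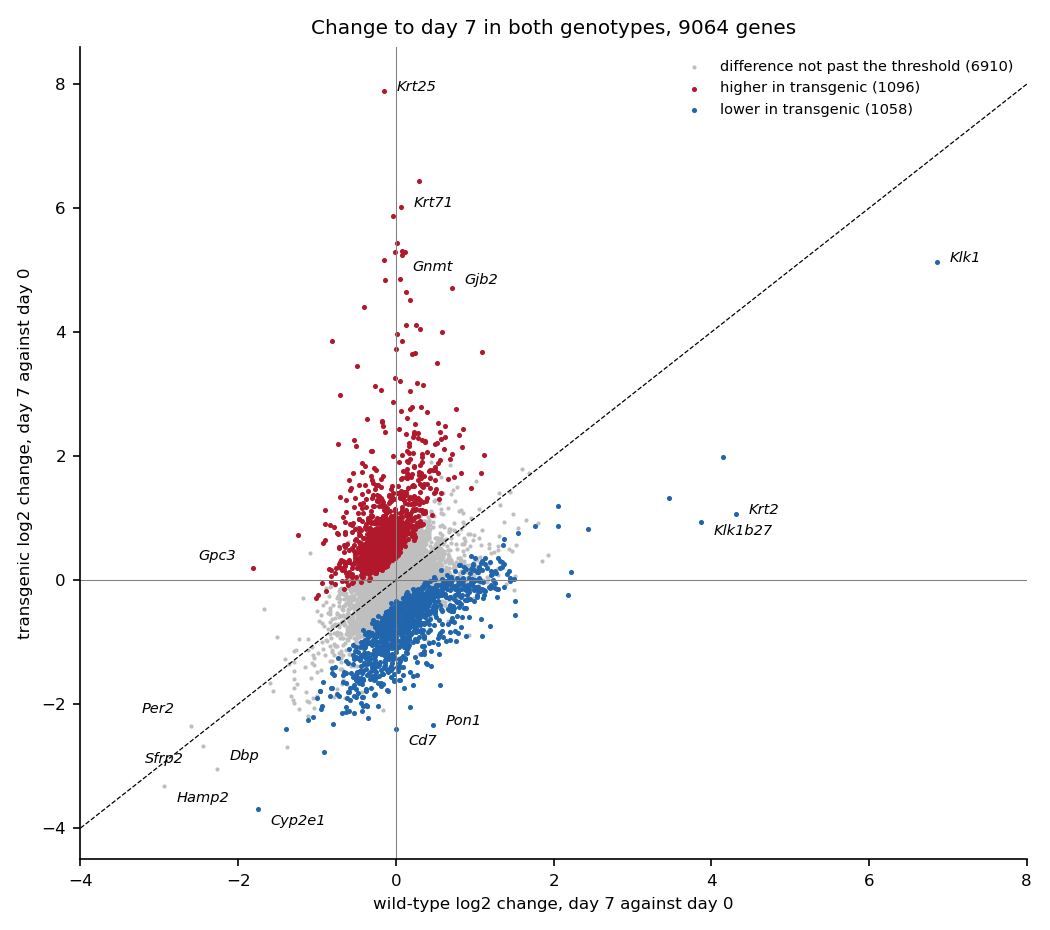
Log2 change from day 0 to day 7 in wild-type (x axis) and transgenic skin (y axis) for 9064 genes, with equal change on the dashed line. Red and blue genes differ between genotypes past the threshold (1096 higher and 1058 lower in transgenic skin). Krt25 and Krt71 lie along the vertical axis, Klk1 and Krt2 to the right below the line, and Per2, Sfrp2 and Hamp2 near the line at the lower left.

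The largest differences between genotypes were follicle keratins on one side and a mixed group on the other. Krt25 differed by 8.04 and Krt71 by 5.95. On the other side Krt2, a keratin of the upper epidermis, differed by -3.25. It read 51.2, 57.6 and 45.2 at wild-type day 0 and 1975 and 1328 at wild-type day 7, against 29.2 and 75.6 and then 153, 217 and 74.8 in transgenic skin. Transgenic day 7 overlapped transgenic day 0 by 1 array in Krt2, whereas both wild-type day 7 arrays were far above all others. Pon1, an esterase, differed by -2.81, with transgenic values of 369 and 339 and then 45.5, 34.6 and 53.5, and wild-type values of 255, 357 and 321 and then 322 and 596. Fcgbp, a mucin-like protein, read 4570 and 4233 and then 970, 906 and 1293 in transgenic skin and between 2783 and 4982 on every wild-type array.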

How the data were processed

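Per the labels, biotinylated cRNA of whole skin was read on GeneChip 430 A arrays. The deposited values are linear intensities for 22690 probe sets on each array, including 64 controls. The authors' summary and scaling of these intensities are not stated in the labels.

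Arrays were scaled to 1 trimmed mean (2% removed at each end) by factors of 0.825 to 1.26 and taken as log2(intensity + 32). Kept were probe sets above the 40th percentile on at least 2 arrays. The platform annotation gave 1 symbol for 20393 probe sets, several for 691 and none for 1542. The brightest probe set stood for each gene, which left 9064 genes. The other probe sets of called genes went the same way in 1675 of 1919 cases and the opposite way past the threshold in 22.

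The 6 groups entered 1 model (limma 3.58.1, R 4.3.3) with an intensity trend, 10 residual degrees of freedom, and two-sided p-values with Benjamini-Hochberg adjustment per comparison (3 in all). The fit was tested on simulated data. Figures were drawn with matplotlib 3.10.9.

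The members and the 44 gene lists were chosen with earlier results of these data known. Named are the 15 largest rises and falls and the 5 largest wild-type changes each way. Both were taken only from called genes whose day 0 and day 7 arrays did not overlap. Also named are up to 4 genes of each list by p (2 bright ones where 0 passed), the 8 largest differences each way, a fixed set, and genes of 3 gene clusters. The text describes only some of these named genes. Chosen after their values were seen were Gclc, Gclm, Nfil3, Pttg1, Gbp2, Flg, Casp14, Cyp2g1, Dlx5, Gata3, Foxn1, Hoxc13, Tgm3, Acta1, Myh1, Mb, Bgn, Rab38, Kit, Igfbp2, Igfbp4, Mmp14, Pdgfra, Sox10, Mitf and Ednrb. Alternatives were other scalings, pseudocounts, filters, probe sets, variance models and arrays. The number of arrays limits the precision.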

Additional observations from a re-analysis of the deposited data

Results flagged for a closer look

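The change from day 0 to day 7 differed between transgenic and wild-type skin, in limma's test of the difference itself, for each of the 16 genes below. On the higher side the transgenic minus wild-type difference was 8.04 on the log2 scale for Krt25, 6.15 for Krt27, 5.95 for Krt71, 5.92 for Krt33a and 5.43 for Krt35, all follicle keratins. It was 5.32 for S100a3, 5.30 for Krtap4-16 and 5.23 for Krtap8-1. On the lower side it was -3.25 for Krt2, -2.93 for Klk1b27, -2.81 for Pon1 and -2.42 for Sprr1b. It was -2.39 for Cd7, -2.25 for Xirp1, -2.22 for Fcgbp and -2.17 for Klk1b21. The difference of Xirp1 did not pass in 2 of the fits that left out an array, at -1.29 when transgenic day 0 replicate 2 was omitted and at -1.98 when the first wild-type day 7 array was. These 16 are the largest differences in each direction. No test for a deviating sample was run on single genes, since groups held 2 or 3 arrays.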

How the results depend on the processing

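The scaling of the arrays mattered most. With the deposited intensities left unscaled, 1774 genes passed in transgenic skin (521 higher and 1253 lower), 258 in wild-type skin (166 and 92) and 724 for the difference between genotypes (281 and 443), against 3503, 1038 and 2154. The cause was not tested. Quantile normalization, other pseudocounts, no filter, a stricter filter, all probe sets, no variance trend and a fit of only the groups compared left these 3 counts within 1.5 times, other probe sets counted as such. Leaving out 1 array gave 2510 to 3311 genes in transgenic skin, 318 to 862 in wild-type skin and 1460 to 2362 for the difference. Where this left 1 array in a group, limma pooled the spread and that array was assumed to vary like the others.

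Same-numbered arrays were not shown to be paired, with deviations from the group means correlating across genes at r = 0.03 and 0.12 in transgenic and 0.13 and 0.05 in wild-type skin. With replicate number as a block (replicate block), 3368, 924 and 1953 genes passed.

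Of the 227 named genes called in transgenic skin, 226 were called with quantile normalization, 225 with the replicate block and 187 without the scaling. The sign turned only for uncalled named genes. With quantile normalization Krt6a was at 0.027 and Ednrb at -0.080. Without the scaling Klk7 was at -0.062, Lyz1 at -0.029, Mitf at -0.10 and Ednrb at -0.13, and with the replicate block Krt19 was at 0.10. Over the fits that left out 1 array, values ran from -0.13 to 0.12 for Ednrb, -0.064 to 0.45 for Gpc3, -0.024 to 0.20 for Klk7, -0.19 to 0.055 for Klk8 and -0.090 to 0.024 for Krt10. They ran from -0.15 to 0.054 for Krt19, -0.25 to 0.21 for Krt6a, -0.19 to 0.021 for Krt77 and -0.29 to 0.064 for Krt84. They ran from -0.018 to 0.41 for Lyz2, -0.031 to 0.16 for Mitf and -0.74 to 0.26 for Sprr1b.

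No detection calls came with the values, so a low intensity is not a call of absence.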
